A study of Homo sapiens with 7 samples.

Results

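S100 genes encode small calcium-binding proteins, and 10 genes of this family from the S100 cluster on chromosome band 1q21 were followed across 7 lines of K562, an established cell line of chronic myeloid leukemia that carries the BCR::ABL1 fusion. The 10 genes were S100A2, S100A3, S100A4, S100A6, S100A8, S100A9, S100A10, S100A11, S100A13 and S100A16, chosen by name from the 25702 genes of the count table. The choice followed a run of lower values in early stage lines, so that the early stage levels given here are a description and carry no test. All 10 genes were found in the table, and 11 other S100 genes were in it too.

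The controls were 2 lines, drug naive K562 and K562 grown with the vehicle DMSO. The other 5 lines were K562 cells made resistant to the tyrosine kinase inhibitor dasatinib (DasR) by long culture in rising doses, and are named by their dose. The early stage lines were 10, 15 and 25 nM DasR and the late stage lines 50 and 200 nM DasR. This grouping is the study's own and was drawn from the clustering of these same libraries. Each line gave 1 library, and all lines share the K562 background. By the paper, the DasR lines were sampled in sequence as the dose was raised, so they are successive stages and not independent repeats. The spread within a group thus holds the effect of dose and of the line together.

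Total counts per library were 21007761 in drug naive and 24037893 in DMSO cells. They were 27808639, 27844799 and 20059656 in 10, 15 and 25 nM DasR, and 20827519 and 21588772 in 50 and 200 nM DasR. A level is given as CPM, the counts scaled to the library total, and 3 counts, taken as the floor of detection, equal between 0.108 and 0.150 CPM. Floors and intervals cover counting error only. The lines are labelled as erythroblasts. The erythroid markers GATA1 and HBG1 were present throughout, with GATA1 between 165.3 and 294.7 CPM and HBG1 between 667.5 and 1986 CPM. The myeloid granule gene MPO had at most 3 counts in any line.

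S100 proteins form dimers whose EF-hand domains bind calcium, which opens a surface that grips target proteins. Many partners are annexins, which bind membranes, or parts of the cytoskeleton. S100A8 and S100A9 are the exception in blood, where they are packed into neutrophils and monocytes as calprotectin. In the genome the family sits at both ends of a stretch that also holds the genes of the outer skin layer.

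The S100 genes showed 4 kinds of pattern across the lines. S100A11 and S100A13 were expressed in every line, with lower levels in the early stage lines. S100A6 and S100A16 were weakly expressed in the controls and at or near the floor in the early stage lines. In 200 nM DasR they parted, with S100A16 above both controls at 11.0 CPM and S100A6 below both at 1.02 CPM. S100A10 had its high values in the early stage lines, and S100A4 had its high values in the late stage lines. The remaining 4 genes, S100A2, S100A3, S100A8 and S100A9, reached at most 6 counts in any library.

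Stretches before 3 of these genes are shown because they belong to the genes with the widest swings. Each is the 250 bases that end just before the start site, on GRCh37, read 5′ to 3′ on the minus strand that all 3 genes use, with every CG dinucleotide in capitals. S100A6 (chr1:153508468-153508717) and S100A16 (chr1:153585614-153585863) had their low values in the early stage lines, and S100A10 (chr1:151966336-151966585) its high values there.
S100A6: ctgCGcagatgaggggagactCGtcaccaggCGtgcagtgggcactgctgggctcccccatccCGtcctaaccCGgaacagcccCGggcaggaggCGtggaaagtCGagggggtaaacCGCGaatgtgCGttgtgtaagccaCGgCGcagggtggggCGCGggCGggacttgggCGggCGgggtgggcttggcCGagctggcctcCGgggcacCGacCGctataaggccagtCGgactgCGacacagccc
S100A16: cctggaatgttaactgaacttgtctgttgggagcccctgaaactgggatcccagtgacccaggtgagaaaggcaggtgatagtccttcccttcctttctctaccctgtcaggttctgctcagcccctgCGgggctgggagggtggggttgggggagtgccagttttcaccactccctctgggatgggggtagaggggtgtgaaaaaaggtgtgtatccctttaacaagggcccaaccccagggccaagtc
S100A10: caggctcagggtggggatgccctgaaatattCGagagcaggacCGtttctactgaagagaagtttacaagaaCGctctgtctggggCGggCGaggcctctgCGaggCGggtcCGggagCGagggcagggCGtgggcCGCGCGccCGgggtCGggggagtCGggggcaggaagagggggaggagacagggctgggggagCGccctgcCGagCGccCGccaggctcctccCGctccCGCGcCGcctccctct
The sequences come from the RefSeq promoter table of GRCh38.p14 and were placed on GRCh37 by exact match. S100A6 and S100A10 each hold 24 CG dinucleotides in this stretch and S100A16 holds 1.

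S100A11, which binds the annexin ANXA1, was the most abundant of the 10 genes (gene ID 6282, chr1:152004982-152020383, minus strand). Its level was 101.1 CPM in drug naive and 99.8 CPM in DMSO cells. It was 37.4, 30.2 and 36.5 CPM in 10, 15 and 25 nM DasR. It was 57.8 CPM in 50 nM and 64.8 CPM in 200 nM DasR. The controls were the highest lines, the early stage lines the lowest, and the late stage lines lay between them with no overlap of the 3 groups. The early stage mean was 2.89-fold lower than the control mean, a fitted log2 fold change of -1.55 (SE 0.12). The annotation holds 8 pseudogenes of S100A11, none of them in the count table, so reads shared with them could not be told apart here.

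S100A13, which takes part in the release of FGF1 from cells, was also lower in the DasR lines (ID 6284, chr1:153591263-153603836, minus strand). Its level was 22.0 and 18.8 CPM in the controls, and 12.4, 10.8 and 11.1 CPM in 10, 15 and 25 nM DasR. It was 11.7 CPM in 50 nM and 16.2 CPM in 200 nM DasR. All 5 DasR lines were below both controls, and 50 nM DasR lay within the early stage range. The fitted log2 fold change of early stage against control was -0.86 (SE 0.18). S100A13 overlaps S100A1 on the opposite strand, and the strand setting of the counting was not given in the sources used here. S100A1, chosen for this overlap, lay between 4.23 and 6.02 CPM over the 7 lines.

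S100A6, or calcyclin, binds the ubiquitin ligase adaptor CACYBP (ID 6277, chr1:153507075-153508720, minus strand). It had 133 counts in drug naive and 176 counts in DMSO cells, or 6.33 and 7.32 CPM. It had 0 counts in all 3 early stage lines, 3 counts in 50 nM DasR and 22 counts (1.02 CPM) in 200 nM DasR. With the floor of 3 counts per library, the early stage level was at least 56.1-fold lower than the control mean. A count of 0 in 10 nM DasR allows up to 0.133 CPM (upper end of the 95% exact Poisson interval). Among the 14899 genes with at least 1 CPM in 2 libraries, 40 (0.268%) had all 3 early stage lines at 3 counts or fewer with both controls at 1 CPM or more, S100A6 included. The result belongs to the contrast by which the genes were chosen and is not evidence about the family.

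S100A16, a broadly expressed member whose calcium binding is atypical, was low in the early stage lines and high in 200 nM DasR (ID 140576, chr1:153579362-153585621, minus strand). It had 54 and 30 counts in the controls, or 2.57 and 1.25 CPM. It had 3, 3 and 4 counts in 10, 15 and 25 nM DasR, or 0.108, 0.108 and 0.199 CPM. It had 27 counts (1.30 CPM) in 50 nM and 238 counts (11.0 CPM) in 200 nM DasR. The early stage mean was 13.8-fold lower than the control mean. The 50 nM value was within the control range and the 200 nM value above both controls, so the late stage mean of 6.16 CPM ± 6.88 (SD, n = 2) describes neither line. Of the 14899 genes, 208 (1.4%) had a value in 200 nM DasR more than 4-fold over the higher control, S100A16 included. The cut lies just under the ratio of S100A16 itself and the share rests on the 200 nM library alone, so nothing is read from it.

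S100A10, or p11, does not bind calcium and pairs with the annexin ANXA2 at the cell surface, where the complex takes part in plasminogen activation (ID 6281, chr1:151955391-151966335, minus strand). Its level was 0.809 CPM in drug naive and 0.499 CPM in DMSO cells. It was 5.21, 21.3 and 16.8 CPM in 10, 15 and 25 nM DasR, then 1.63 CPM in 50 nM and 0.185 CPM (4 counts) in 200 nM DasR. The early stage lines were the 3 highest and 200 nM DasR was the lowest of all 7. The early stage mean was 22.1-fold the control mean, with a fitted log2 fold change of 4.44 (SE 0.94). S100A10 reached 10 CPM only in 15 and 25 nM DasR, so it entered the test through the group in which it was high.

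S100A4, which binds the non-muscle myosin MYH9 and is linked to cell motility, had a pattern of its own (ID 6275, chr1:153516089-153522612, minus strand). Its level was 2.38 and 2.70 CPM in the controls and 2.98, 1.08 and 1.94 CPM in 10, 15 and 25 nM DasR. It was 4.13 CPM in 50 nM and 5.93 CPM in 200 nM DasR. The early stage values overlapped the controls, and both late stage values were above all other lines. S100A4 overlaps S100A3 on the same strand, but S100A3 had at most 4 counts.

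**Figure D1:**
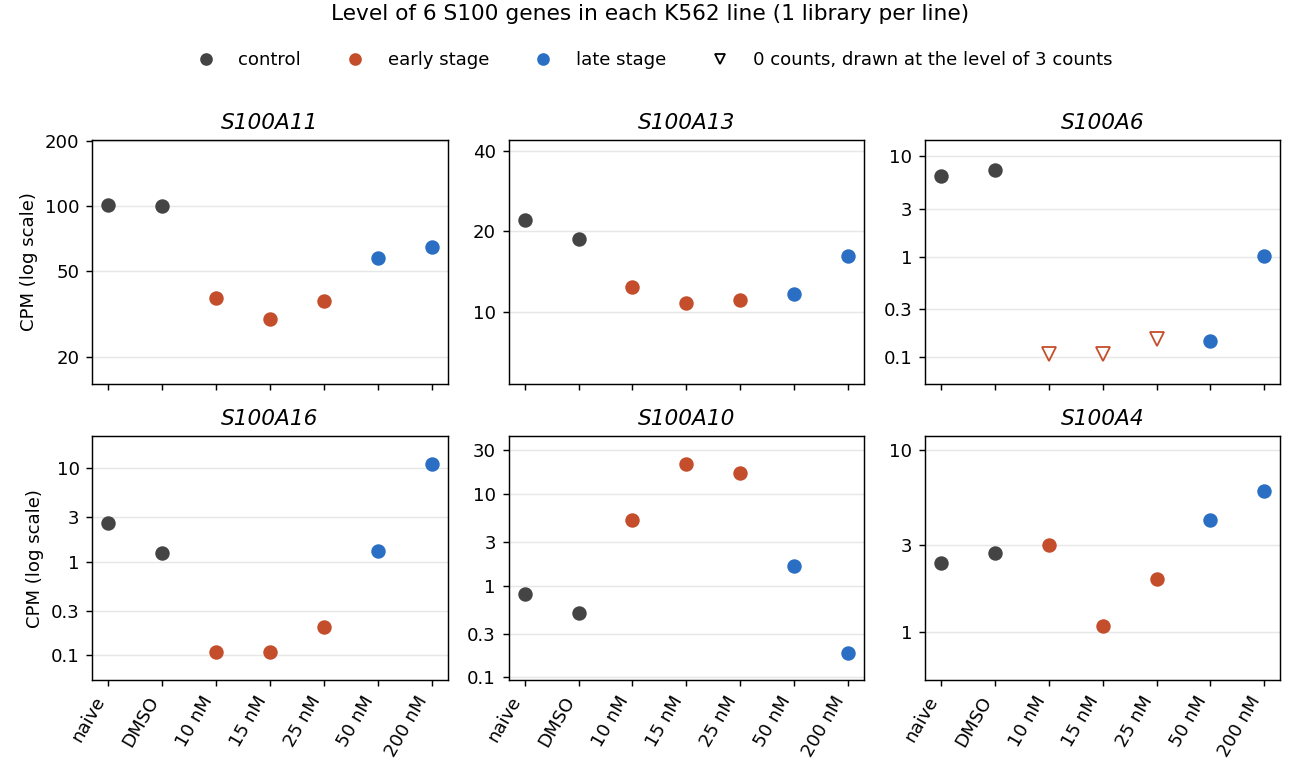
Level of 6 S100 genes in the 7 K562 lines, in CPM on a log axis that differs between panels, with 1 point per library and open triangles at the level of 3 counts where the library had 0 counts. S100A11, S100A13, S100A6 and S100A16 have their lowest points among the early stage lines, S100A10 its highest, and S100A4 its highest in the late stage lines.

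The calprotectin genes stayed at a trace level. S100A8 had 0 and 0 counts in the controls, 5, 4 and 5 counts in the early stage lines and 1 and 0 counts in the late stage lines. S100A9 had 0 and 1 counts in the controls, 6, 3 and 2 counts in the early stage lines and 0 and 0 counts in the late stage lines. Both were at or under the floor in control and late stage lines, and their highest levels were 0.249 CPM for S100A8 and 0.216 CPM for S100A9. S100A2, a gene of epithelial cells, had at most 5 counts, and S100A3, a gene of the hair cuticle, at most 4 counts. No order between lines could be read for S100A2, S100A3 and S100A9 at this depth. S100A8 was above the floor in the 3 early stage lines only, by 2 counts at most.

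Compared per length, as CPM per kb of annotated exon, S100A11 ranked first of the 10 genes in every group. Its level per kb was 155 ± 1.37 in control, 53.5 ± 6.06 in early stage and 94.5 ± 7.72 in late stage lines (mean ± SD, n = 2, 3 and 2). S100A10 ranked at place 6 in control lines with 0.646 ± 0.217 CPM per kb and at place 2 in early stage lines with 14.3 ± 8.20 CPM per kb. S100A6 ranked at place 3 in control lines with 7.03 ± 0.722 CPM per kb and at place 10 in early stage lines, where it had no counts. With the length of the longest transcript instead, S100A6 was at place 2 and S100A13 at place 3 in control lines. The summed level of the 10 genes was 135 and 130 CPM in the controls. It was 58.5, 63.7 and 67.0 CPM in the early stage lines and 76.7 and 99.6 CPM in the late stage lines. S100A11 was the largest part of this sum in every line, and S100A10 went the other way. The low early stage sums belong to the contrast by which the genes were chosen, so nothing is read from them about the family.

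The genes were then read against the background of the table. Of the 10, 3 (S100A10, S100A11 and S100A13) had at least 10 CPM in 2 libraries, 6 had at least 1 CPM in 2 libraries and 4 did not. Among the 6, all early stage lines lay below both controls for 4 genes and above both for 1 gene. Over the 14899 genes at this limit, the same held for 33.2% below and 33.8% above, and nothing is read from the count since the genes were chosen on this contrast.

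The late stage lines played no part in the choice of genes, but the controls did, so that late stage against control is not independent of it either. Of the 6 genes, both late stage lines lay below both controls for 3 (S100A6, S100A11 and S100A13), against a background of 35.1%, and above both for 1 (S100A4), against 30.6%. By edgeR (quasi-likelihood, p-values adjusted after Benjamini and Hochberg), 0 of the 3 genes tested passed an FDR of 0.005, the threshold of the study, where 7.98% of 10452 genes did. At an unadjusted p under 0.05 there were 2 of 3, against 45.9% of all genes, and DESeq2 called 1 (S100A11), against 23.9%, and limma-voom 0, against 7.54%. With the 1 CPM limit edgeR called 0 of 6, against 5.52%, with 3 at an unadjusted p under 0.05, against 42.1%. DESeq2 then called 2 (S100A6 and S100A11), against 19.3%, and limma-voom 1 (S100A6), against 5.21%.

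S100A11 came nearest to the threshold, with a late stage log2 fold change of -0.73 (SE 0.13, edgeR FDR = 0.00646), lower in 2 of 2 lines. Over 16 alternative settings its FDR ran from 3.70e-05 to 0.0418 and was under 0.005 in 2 of them. S100A13 had a log2 fold change of -0.57 (SE 0.20, edgeR FDR = 0.0621). S100A6 had a log2 fold change of -3.52 (SE 0.74, edgeR FDR = 0.0226 at the 1 CPM limit), lower in 2 of 2 lines. It reached this limit through the controls, where it was high, with 200 nM DasR the only other line above 1 CPM. Its late stage lines differed, with 3 counts in 50 nM and 22 counts in 200 nM DasR, and over 12 alternative settings its log2 fold change ran from -5.50 to -2.72 and its FDR from 0.000269 to 0.0936. S100A4 had a log2 fold change of 0.996 (SE 0.46, edgeR FDR = 0.141), higher in 2 of 2 lines. For S100A16 it was 1.70 (SE 0.86, edgeR FDR = 0.174), a value set by 200 nM DasR, since without that library it was -0.54. For S100A10 it was 0.45 (SE 1.05, edgeR FDR = 0.766), and -1.81 without 50 nM DasR.

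**Figure D2:**
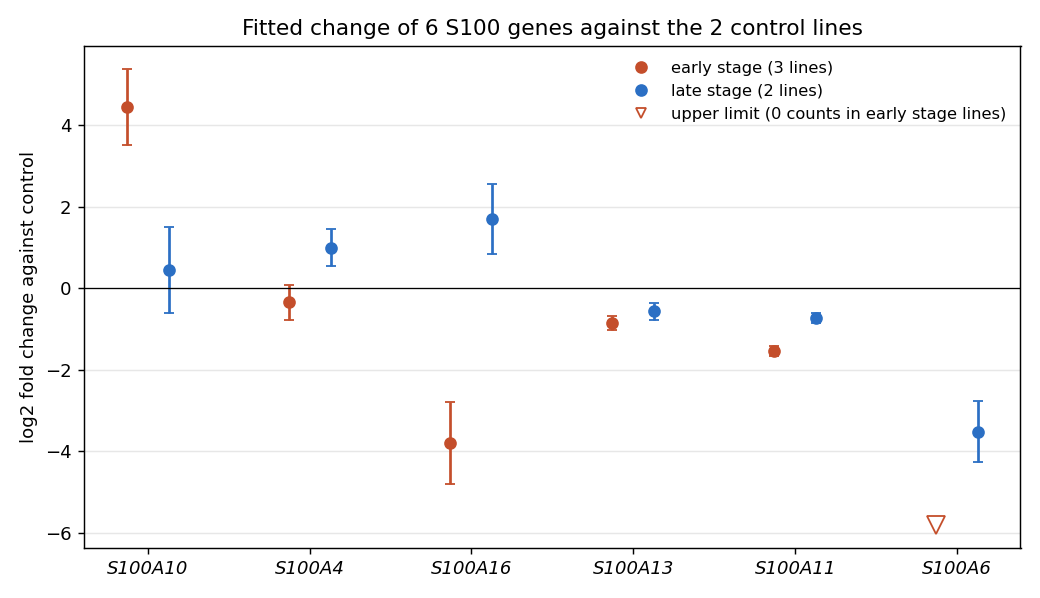
Fitted log2 fold change of 6 S100 genes against the 2 control lines, in early stage (3 lines) and late stage lines (2 lines), with bars of 1 SE. The open triangle is the upper limit for S100A6, which had 0 counts in all early stage lines. The late stage point of each gene except S100A10 lies above its early stage point, and S100A4, S100A10 and S100A16 are above 0 in the late stage lines.

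Between the resistant lines, both late stage lines were above all early stage lines for 4 of the 6 genes (S100A4, S100A6, S100A11 and S100A16), where 23.3% of all genes were, and below for 1 (S100A10), where 27.9% were. For S100A6 the 50 nM value was itself at the floor of 3 counts, so its order against the early stage lines cannot be read there. The late stage mean was 1.77-fold the early stage mean for S100A11, 2.51-fold for S100A4 and 1.22-fold for S100A13, and the early stage mean of S100A10 was 15.9-fold the late stage mean. For S100A6 and S100A16, whose late stage lines differ widely, no ratio of these means is given. No p is given for these ratios, since the early stage lines were used in choosing the genes.

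Of the 11 other S100 genes, 4 had 3 counts or fewer in every line, and 1, S100P on chromosome 4, was tested at the 10 CPM limit. S100P, which binds ezrin and is a marker of several carcinomas, was at 21.5 and 18.4 CPM in the controls and at 0.288, 0.395 and 0.499 CPM in 10, 15 and 25 nM DasR. Its late stage values were 0.720 and 0.741 CPM. Every DasR line was far below both controls. S100P fell in late stage against control (log2 fold change -4.78, SE 0.32, edgeR FDR = 0.000432). S100P reached 10 CPM only in the controls, so it entered the test through the group in which it was high. Without the drug naive library its FDR was 0.00795, above the threshold. S100A7A, a skin member inside the 1q21 cluster and named here after its values were seen, had 1 and 4 counts in the controls and 19, 58 and 26 counts in the early stage lines. It had 0 counts in both late stage lines, so its high values lay in the same 3 lines as those of S100A10.

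Annexins are the main membrane partners of S100 proteins. Of the 12 annexin genes counted, 8 were tested, and 2 of them fell in the late stage lines at an FDR of 0.005 and 0 rose, against 4.56% and 3.42% of all genes tested. Their median log2 fold change was -0.55, against -0.0036 over all genes tested. By unadjusted p 5 of the 8 were under 0.05 (45.9% of all genes), and DESeq2 called 3 (23.9%) and limma-voom 2 (7.54%). At the 1 CPM limit edgeR called 1 of 9, ANXA3 (5.52%). ANXA3 was at 64.7 and 57.4 CPM in the controls, 10.2, 8.62 and 11.8 CPM in early stage and 17.1 and 16.9 CPM in late stage lines, a late stage log2 fold change of -1.86 (SE 0.17, edgeR FDR = 0.000887). ANXA5, the annexin used to stain dying cells, was at 143.9 and 127.8 CPM in the controls and 86.9 and 76.7 CPM in the late stage lines (log2 fold change -0.75, SE 0.12, edgeR FDR = 0.00409). Leaving out either control or either late stage library took the FDR of ANXA3 above 0.005, up to 0.00926. Leaving out any 1 of the 7 libraries took the FDR of ANXA5 above 0.005, up to 0.0268. Both genes were lower in 2 of 2 late stage lines.

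The partners of the genes that varied were less uniform. ANXA1, the partner of S100A11, was at 512.7 and 644.2 CPM in the controls, 79.5, 11.1 and 72.0 CPM in early stage lines and 205.4 and 226.6 CPM in late stage lines, so that the 3 groups did not overlap. Its late stage log2 fold change was -1.44 (SE 0.73, edgeR FDR = 0.162), and the FDR was 0.00159 without 15 nM DasR, the lowest line. ANXA2, the partner of S100A10, lay between 108.1 and 141.6 CPM in all lines, with a late stage log2 fold change of -0.20 (SE 0.12, edgeR FDR = 0.228). Levels of S100A10 thus spread over a far wider range than those of its partner.

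Of 17 listed protein partners of S100 genes, 12 were tested and 0 passed in either direction in late stage lines by edgeR or limma-voom. Over all genes edgeR called 7.98% and limma-voom 7.54%. Of the 12, 5 had an unadjusted p under 0.05, against 45.9% of all genes, and DESeq2 called 2, against 23.9%. Their median log2 fold change was 0.06. CACYBP, the partner of S100A6, had a log2 fold change of 0.49 (SE 0.14, edgeR FDR = 0.0362). MYH9, the partner of S100A4, had -0.22 (SE 0.18, edgeR FDR = 0.368). AHNAK, a giant scaffold protein that holds the complex of S100A10 and ANXA2, had -1.57 (SE 0.48, edgeR FDR = 0.0402), with 1270 CPM in drug naive but 546.2 CPM in DMSO cells.

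Of 7 receptors for secreted S100 proteins, 5 were tested and 0 passed by edgeR, DESeq2 or limma-voom, with 0 at an unadjusted p under 0.05. The shares over all genes were 7.98%, 23.9%, 7.54% and 45.9%, in that order. The median log2 fold change of the 5 receptors was 0.14. AGER, the receptor RAGE, lay between 9.53 and 17.3 CPM in all lines (late stage log2 fold change -0.25, SE 0.24, edgeR FDR = 0.464). TLR4, which binds calprotectin, had 0 counts in both controls and 5, 22 and 43 counts in 10, 15 and 25 nM DasR. It had 2 and 0 counts in 50 and 200 nM DasR.

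Markers of other cell types were read in the same libraries, since several S100 genes mark myeloid cells or skin. Fewer cells of a type and less RNA per cell cannot be told apart in these bulk libraries. The summed level of 20 myeloid markers was 160 and 136 CPM in the controls, 209, 186 and 175 CPM in early stage and 173 and 161 CPM in late stage lines. LYZ was the most abundant, and CD14 was at or under 1.11 CPM in every line. Of the 20, 4 were tested and edgeR called 0 in late stage lines (7.98% of all genes), with 3 at an unadjusted p under 0.05 (45.9%), 1 called by DESeq2 (23.9%) and 0 by limma-voom (7.54%). At the 1 CPM limit edgeR called 1 of 9, AZU1 (5.52% of all genes), with 7 at an unadjusted p under 0.05 (42.1%), 4 called by DESeq2 (19.3%) and 1 by limma-voom (5.21%).

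The 16 erythroid markers, all of them tested, summed to 4391 and 3990 CPM in the controls. They summed to 12895, 14396 and 11237 CPM in early stage and 7297 and 5170 CPM in late stage lines. HBG2 was the most abundant. In late stage lines edgeR called 1 of the 16 higher (TFRC, the transferrin receptor) and 0 lower, against 3.42% and 4.56% of all genes, with 8 at an unadjusted p under 0.05 (45.9% of all genes). DESeq2 (23.9%) and limma-voom (7.54%) each called 1. The early stage lines had the highest erythroid sums and the lowest S100 sums. S100A11 was the largest part of the S100 sum in every line, S100A10 went the other way, and a low S100 sum in early stage lines belongs to the contrast by which the genes were chosen. The part of this shift in the S100 values was not tested.

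Of 12 megakaryocyte markers 4 were tested, and edgeR called 1 higher (THBS1) and 0 lower in late stage lines, against 3.42% and 4.56% of all genes. THBS1 reached 10 CPM only in DasR lines, where it was high. Of the 4, 3 had an unadjusted p under 0.05 (45.9% of all genes), and DESeq2 called 3 (23.9%) and limma-voom 0 (7.54%). All 12 markers together summed to 83.1 and 67.2 CPM in controls, 92.1, 85.1 and 80.5 CPM in early stage and 144 and 134 CPM in late stage lines. ITGA2B was the most abundant, and PF4 had at most 1 count. Keratinocyte markers summed to 59.5 and 60.5 CPM in controls, 32.9, 32.4 and 32.6 CPM in early stage and 45.8 and 79.6 CPM in late stage lines. KRT10 was the most abundant, while KRT5 and KRT14 had at most 1 count in any line. Stromal markers summed to 119 and 90.1 CPM in controls, 91.1, 118 and 73.3 CPM in early stage and 58.0 and 38.4 CPM in late stage lines, with FN1 the most abundant. COL1A1 lay between 2.52 and 9.52 CPM, and COL1A2 between 0.0499 and 14.3 CPM with its high value in DMSO cells. In late stage lines edgeR and limma-voom called 0 of the 2 keratinocyte and 0 of the 1 stromal markers tested, with 1 of each at an unadjusted p under 0.05. DESeq2 called 0 and 1 of them. Over all genes edgeR called 7.98%, limma-voom 7.54% and DESeq2 23.9%, and 45.9% had an unadjusted p under 0.05. The part of these markers in the S100 values was not tested.

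The 10 genes span 1648 kb, with S100A10 and S100A11 at one end and the other 8 in a second group at the other. Of 45 genes between the first and the last that are not S100 genes, 32 had 3 counts or fewer in every line. SPRR2D, a small proline-rich protein of the skin barrier, was the only 1 with 10 CPM in 2 libraries. It was at 27.2 and 15.4 CPM in the controls, 0, 0 and 0.349 CPM in early stage and 0.432 and 0 CPM in late stage lines (late stage log2 fold change -6.64, edgeR FDR = 0.00599). It passed the limit only through the controls, where it was high, and it has near-identical copies, so that its counts are uncertain.

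The tested genes around the cluster showed no common shift. Of 18 other tested genes within the region and 500 kb on each side, all early stage lines were below both controls for 8 (34% of all genes at 10 CPM) and above both for 5 (35.9%), and the median fitted log2 fold change was 0.00043 in early stage and 0.010 in late stage lines. The lowest late stage FDR among them was that of SPRR2D. On the left, THEM4 was at 34.2 and 42.7 CPM in controls and between 52.8 and 58.7 CPM in early stage lines, and TDRKH at 31.4 and 25.3 CPM in controls and between 17.7 and 23.2 CPM in early stage lines. On the right, CHTOP lay between 57.1 and 67.3 CPM and SNAPIN between 12.01 and 14.6 CPM over all 7 lines. CHTOP is the first tested gene beyond S100A13.

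**Figure D3:**
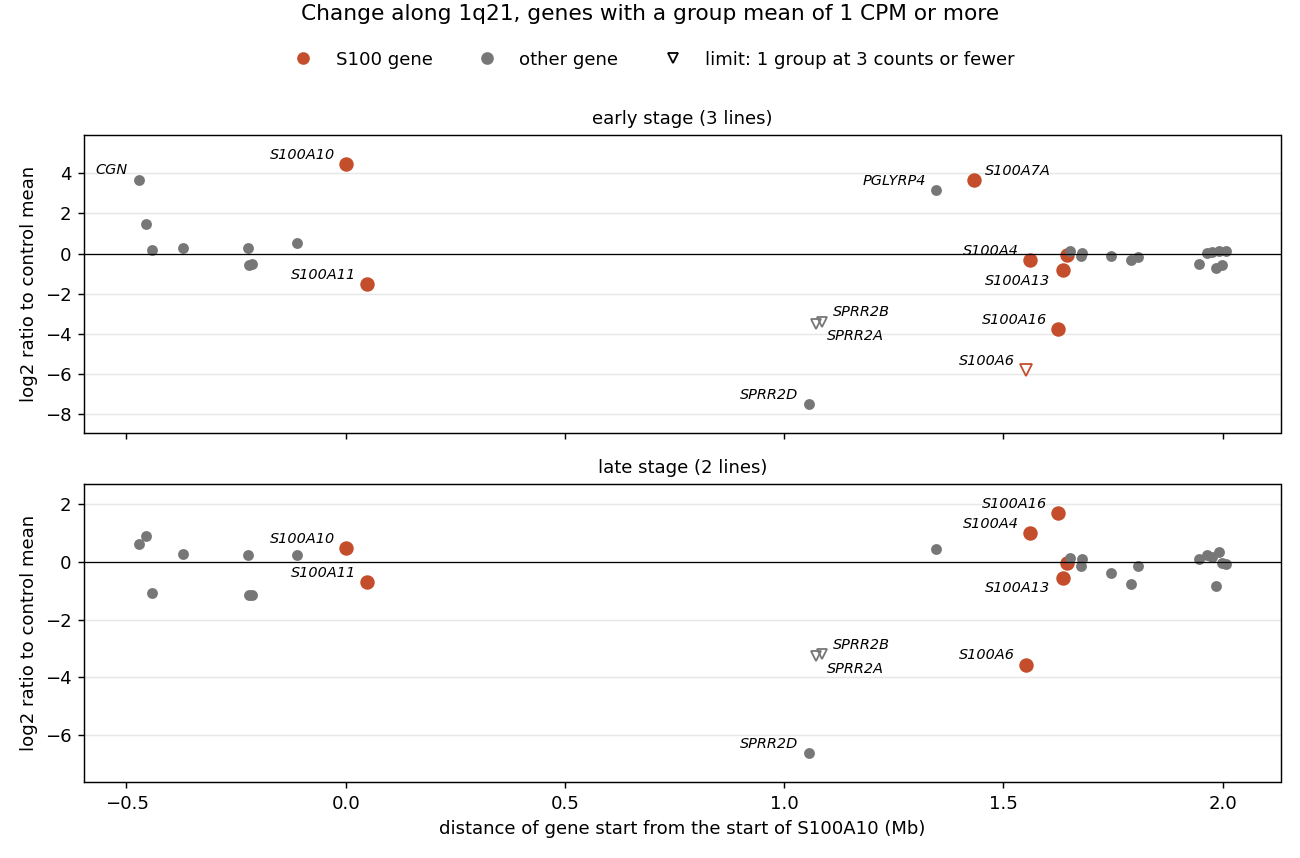
Log2 ratio to the control mean along 1q21 for genes with a group mean of 1 CPM or more, against distance in Mb from S100A10, for early stage (above) and late stage lines (below). Filled circles are ratios, open triangles are limits where a group had 3 counts or fewer in every line, and S100 genes are in red. S100A10 and S100A11, which are neighbours, lie on opposite sides of 0 in the early stage panel, and the genes to the right of S100A13 lie within 1 log2 unit of 0 in both.

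Promoter windows were read for features that the choice of genes did not use. RefSeq holds 16 windows of 300 bases (250 before and 50 after a start site) for the 10 genes, and the 1 at the main annotated start site was used for each. CG dinucleotides numbered 32 for S100A10, 31 for S100A6, 22 for S100A11 and 11 for S100A13. They numbered 8 for S100A4, 5 each for S100A2, S100A3 and S100A9, 3 for S100A16 and 2 for S100A8. The median of the 10 was 6.5, and that of all 35116 windows was 14. The 4 genes with at most 6 counts had 5 CG dinucleotides or fewer, as did S100A16. By these windows, the genes that were low in early stage lines stood at both ends of this range, with S100A6 near the top and S100A16 near the bottom. The place depends on the start site, since the other S100A16 window held 8 CG dinucleotides and the other S100A13 windows 19 and 12.

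**Figure D4:**
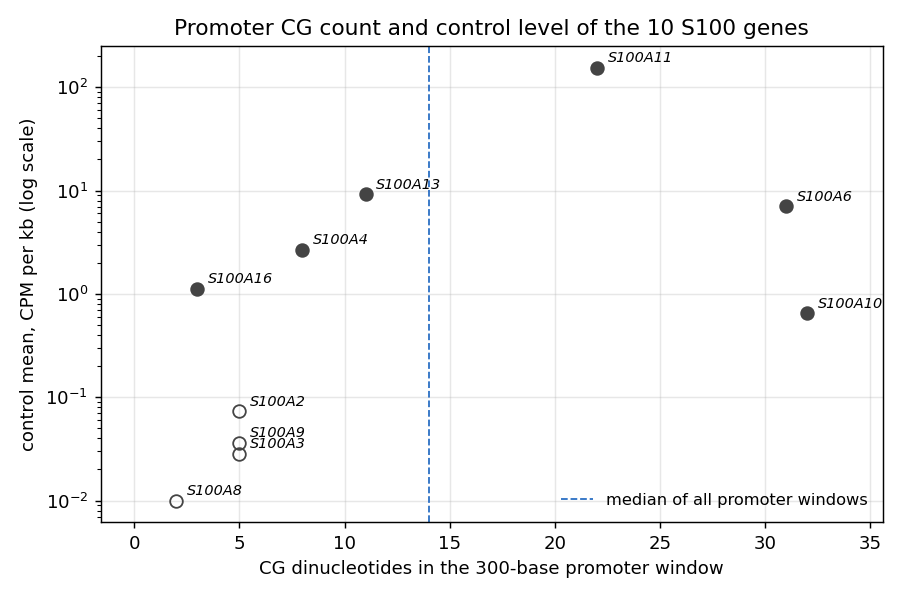
Number of CG dinucleotides in the 300-base promoter window of each of the 10 S100 genes against its control mean in CPM per kb on a log axis. Open circles are genes at 3 counts or fewer in both controls, with S100A8, which had 0 counts, drawn at 0.01, and the dashed line is the median of all windows, 14.

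Motifs were searched on both strands by their letters alone. The TATA box TATAAA was in 4 windows (S100A4, S100A8, S100A9 and S100A13), against 11.5% of all windows. The STAT motif TTCNNNGAA was in the window of S100A3 (7.66% of all windows), and the AP-1 motif TGANTCA in those of S100A2 and S100A3 (7.71%). The C/EBP motif TTGCNNAA was in the window of S100A11 (10.5%). The GATA motif AGATAA (10.3% of all windows) and the E-box CACGTG (7.26%) were in none of the 10. S100A6, S100A10 and S100A16, the genes shown above, held none of the 6 motifs, which says only that these letters are not in these windows. None of the 6 motifs holds another in full.

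The genes nearest to the mean profile of the 3 tested members (S100A10, S100A11 and S100A13) were found by the Euclidean distance of centred log2 CPM over the 7 lines. They were ZNF717 (distance 0.23), PIK3R3 (0.28), SCAI (0.32), TRIM58 (0.37) and NOTUM (0.40). S100A10 dominates this mean, since its values spread the most, and all 5 genes were highest in 15 or 25 nM DasR, where S100A11 and S100A13 were low. None of the 5 was among the 5 nearest to S100A11 or S100A13 taken alone. PIK3R3, a regulatory subunit of PI3 kinase, was at 22.7 and 21.4 CPM in the controls, 31.0, 37.8 and 35.1 CPM in early stage and 20.8 and 12.7 CPM in late stage lines. The measure is a description over lines that share their background and media, and Pearson distance kept 1 of the 5 genes.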

How the data were processed

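The authors made 1 ribosome-depleted library per K562 line (7 in all) with a directional kit, aligned the reads with STAR against hg19, and deposited raw counts per gene for 25702 gene IDs. The submitters' processing notes name FastQC, featureCounts and edgeR, and the strand setting of the counting is not given in the sources used here. The 2 deposited tables of the authors' own comparisons (fold changes on the log2 scale, p-values, FDR and mean levels) were used only to pair IDs with symbols. RefSeq gave symbols for 23696 IDs, and an annotation of GRCh37, the build of hg19, placed 22741. Every library column was used.

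Genes with 10 CPM in 2 libraries were kept (10452), normalized by TMM and compared in edgeR 4.0.16 under R 4.3.3 (glmQLFit, then glmQLFTest) with all 7 libraries, Benjamini-Hochberg adjustment and an FDR of 0.005. A limit of 1 CPM (14899 genes) was used for S100A4, S100A6 and S100A16. The common dispersion was 0.0260. DESeq2 1.42.0, limma-voom (limma 3.58.1), other scalings, filters and thresholds, and leaving out each library were alternatives. Libraries of a group differed by more than sampling noise (chi-square per degree of freedom 15.5 to 48.3). On simulated counts for late stage against control, edgeR called 200 of 200 changed genes, with a log2 change of 2, and 2 unchanged ones over 10452 genes. The simulation gave every gene the same dispersion, near the common one, and held only genes past the 10 CPM limit. It checks that the fit runs as set and does not measure the power for the S100 genes, whose lines differ more.

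The genes named were the 10 S100 genes, listed S100 relatives, annexins, partners and receptors that passed in late stage lines, 7 fixed partners and receptors, expressed neighbours on 1q21, the 5 nearest in pattern, and the defining and most abundant markers. AZU1, THBS1 and TFRC were named after their values were seen. The 10 genes and all lists were chosen with earlier results of these data known. A prior count of 2 was added before distances between profiles were taken. Protein sequences were not used here. The level of 1 defining marker is not reported here. Assays other than RNA-seq were not analysed here. P-values measure the spread between lines, and the DasR lines are successive stages of a dose escalation, not independent repeats.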

Additional observations from a re-analysis of the deposited data

Results flagged for a closer look

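The genes nearest in pattern to the mean of S100A10, S100A11 and S100A13 included 4 whose early stage lines lay on one side of the control mean and whose late stage lines lay on the other. ZNF717 had a log2 ratio of late over early stage mean CPM of -1.03, from 35.7 CPM in 15 nM to 12.3 CPM in 200 nM DasR. PIK3R3 had a log2 ratio of -1.05, and SCAI of -0.90, with SCAI means of 104.8 CPM in early stage and 56.1 CPM in late stage lines. NOTUM had a log2 ratio of -1.11, with 6.58 CPM in 200 nM DasR. These differences were not tested, and the genes were picked for their likeness to a profile that is high in early stage lines.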

How the results depend on the processing

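No paired analysis was possible because the labels give no replicate number that the groups share. In late stage against control, S100A11 and S100A13 kept their direction over 16 alternatives, and S100A4 and S100A6 over 12. S100A10 in late stage lines turned to -0.19 under limma-voom, ran from -1.81 to 1.31 when each library was left out, and against early stage from -6.26 to -3.13. S100A16 ran from -0.54 to 2.54 against control, and against early stage was 3.26 without 200 nM DasR. S100A11 passed under DESeq2 (-0.73) and ran from -0.81 to -0.66 when a library was left out. S100A6 passed under DESeq2 (-3.52) and limma-voom (-4.01). It had 0 counts in all 3 early stage lines, so fitted values against that group depend on how the model treats such counts. For early stage against control the fit gave -8.43 under limma-voom, where the floor of 3 counts supports only a log2 ratio of -5.81 or lower. For late against early stage it gave 4.42 under limma-voom and from 4.83 to 7.62 when a library was left out. No size of change is read from these S100A6 values. S100A13 against early stage ran from 0.042 to 0.49. The S100A11 control mean was 101.4 CPM with TMM-scaled totals. MYH9 ran from -0.42 to 0.011 and AGER from -0.52 to 0.054, each above 0 without 1 of the controls. The genes called between early stage and control (1881) numbered 4865 at an FDR of 0.05, 3548 with DESeq2 and 208 to 2066 when a library was left out. Between late stage and control (834) they numbered 3542, 2503 and 33 to 596, with 1287 without a filter and 257 with only the groups compared. Between late and early stage edgeR called 0 (3450 at an unadjusted p under 0.05), with 1328 at an FDR of 0.05, 1135 with DESeq2, 295 without a filter and 0 to 198 when a library was left out. All 5 DasR lines as 1 group hold the early stage lines used in choosing the genes, so no test of that grouping is given. With Pearson distance 1 of the 5 nearest genes was kept. The cause of these shifts was not tested. Depth limits S100A2, S100A3, S100A8 and S100A9, whose counts stay near the floor.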

Other observations

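Each of the 6 expressed members was also taken alone as the profile to match, an alternative chosen after seeing the data. The 3 genes nearest to S100A16 were FCGR2B (distance 1.31), HSPA7 (1.46) and FCGR2C (2.02), which lie near each other on chromosome 1 outside the S100 cluster. FCGR3B, which lies among them, had a log2 fold change of -0.12 (SE 0.49) in late stage lines against the controls at the 1 CPM limit. FCGR2B, an inhibitory receptor for antibodies, was at 22.6 and 11.7 CPM in the controls, 2.84, 1.80 and 4.64 CPM in early stage and 17.8 and 64.0 CPM in late stage lines. FCGR2B and FCGR2C are near-identical copies that can share reads, and the 3 genes may not be separate measurements.

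The genes nearest to S100A6 were C15orf26, FUT1, ERO1LB, RBM47 and G0S2. These lists depend on the measure, since Pearson distance kept 0 of these 5 and gave LONP1, TNFAIP3, HERPUD1, SESN2 and POC1A instead, and of the 5 nearest to S100A16 it kept 1, FCGR2B. RBM47, an RNA-binding protein, was at 22.9 and 20.5 CPM in the controls, 0.935, 0.395 and 0.449 CPM in early stage and 1.54 and 14.7 CPM in late stage lines. G0S2, an inhibitor of the breakdown of stored fat, was at 62.7 and 60.3 CPM in the controls and 2.50 CPM in 200 nM DasR, and at most 0.755 CPM in the 4 lines between.

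ABCG2, the drug efflux transporter, named here after its values were seen, was at 3.57 and 0.582 CPM in the controls, 512.1, 3122 and 3089 CPM in early stage and 199.2 and 2.41 CPM in late stage lines. From its highest line down it followed the order of S100A10 over 5 of the 7 lines, and the lowest line was 200 nM DasR for S100A10 and DMSO for ABCG2. This is a description over 7 lines that share their background.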
